A study of Mus musculus with 90 samples.

Results

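Liver cells of mice keep time with a clock in which BMAL1 and CLOCK or NPAS2 switch on the genes of their own repressors, the PER, CRY and REV-ERB proteins, and meals and glucocorticoid hormone both shift it. Between meals hepatocytes make glucose and oxidise fatty acids under glucagon, glucocorticoids, PPARα and FoxO1, and after a meal insulin restrains FoxO1 and raises SREBP-1c, which directs fat synthesis. Glucocorticoids act through the glucocorticoid receptor (GR), encoded by Nr3c1, and their level in mouse blood is highest near lights off.

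The data are bulk RNA-seq libraries of mouse liver, each from 1 mouse, and the comparison covers 6 of the 90 samples of the series. These were 3 WT livers on caloric restriction at zeitgeber time (ZT) 12 and 3 at ZT16, chosen by their labels alone. ZT counts hours from lights on; ZT12 was lights off and the hour at which food was given, and ZT16 came 4 h later, so the comparison asks how liver RNA differed across dark onset and the meal. All mice were C57BL/6J males, 12 weeks old at the start of a protocol of 8 weeks, and all were homozygous for floxed GR alleles (genotype GRfl/fl, called WT here). The restricted mice were brought in steps over 4 weeks to 40% fewer calories. The same 2 time points were read in 2 further settings, which serve only to show where the WT change on restriction differed. One was 3 and 3 restricted GRLKO livers (GRfl/fl with Alb-Cre, where the albumin promoter directs the deletion to hepatocytes and other liver cells are meant to keep GR). The other was 4 and 4 WT (GRfl/fl) livers on the control diet, fed without restriction of amount but only at night for the last week.

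Total counts ranged from 16.2M to 20.8M per WT library on restriction at ZT12 and from 14.2M to 19.1M at ZT16. The GRLKO libraries held 16.8M to 19.2M at ZT12 and 16.2M to 16.8M at ZT16, and the control-diet libraries 11.4M to 14.5M and 13.7M to 17.1M. At these depths a gene with no count in a WT library on restriction could still have held up to 0.16 to 0.215 CPM (counts per 1M counts), the level of 3 counts; such limits cover counting error only. Levels below are CPM after TMM scaling, changes are log2 of ZT16 over ZT12 with their standard error (SE), and a gene is said to have risen or fallen where its adjusted p lay under 0.05. These p-values measure the spread between the mice of these groups.

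The libraries carried the tissue they were labelled with, and 1 of the 6 also held RNA of another kind. All 12 hepatocyte markers had counts in each of the 6 libraries, and albumin RNA alone made up 11 to 12.1% of the counts. The 11 exocrine pancreas markers (trypsins, elastases, amylase and other digestive enzymes) summed to 1240 CPM in replicate 3 at ZT12, where only Prss1 was at 0, against 0.14 and 0.7 CPM in replicates 1 and 2 and 0 to 0.287 CPM at ZT16. Its most abundant marker, the amylase gene Amy2a5, stood at 431 CPM there and at 0 in the other 5 libraries, with 62.3% of its words of 31 bases in other genes. Replicate 2 of the control diet at ZT16 carried 766 CPM of these markers. The markers were left out of the WT test by the filter on low counts, and the part of this RNA in other results was not tested; without replicate 3 at ZT12, 3584 genes were called, 1884 up and 1700 down.

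Nr3c1 itself was read first. It stood at 102, 98.5 and 104 CPM in WT livers on restriction at ZT12 and at 77.7, 95.3 and 95.3 CPM at ZT16. The GRLKO livers held 30.6 to 31.9 CPM at ZT12 and 23.1 to 25.7 CPM at ZT16, below every WT library, as their label has it. The WT difference over the 4 h was −0.17 (SE 0.101, adjusted p 0.219) and was not called.

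Of 11768 genes tested in WT on restriction, 2471 (21.0%) rose and 2234 (19.0%) fell, and the median change over all genes was 0.01. DESeq2 gave 2201 up and 2299 down. Among the called genes 867 rose and 549 fell more than 2-fold, and 48 rose and 38 fell more than 8-fold. The balance of directions rests on the scaling. Risers made up 52.5% of the calls with TMM and 72.4% (3575 of 4941) when libraries were scaled by total count alone, a scaling that shifted all genes upward by 0.17 on the log2 scale; changes below are relative to TMM. Fewer genes passed in the other settings: 2395 up and 2121 down in GRLKO on restriction, and 784 up and 756 down in WT on the control diet.

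The genes called here mostly had their daily extremes at these time points. Over the 6 time points of WT livers on restriction, 65.2% of the genes that rose were highest at ZT16 and 58.6% were lowest at ZT12. Of those that fell, 65.2% were highest at ZT12 and 59.4% were lowest at ZT16. The extremes share the ZT12 and ZT16 libraries with the test, so they describe the shape of the day and do not check the calls.

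**Figure D1:**
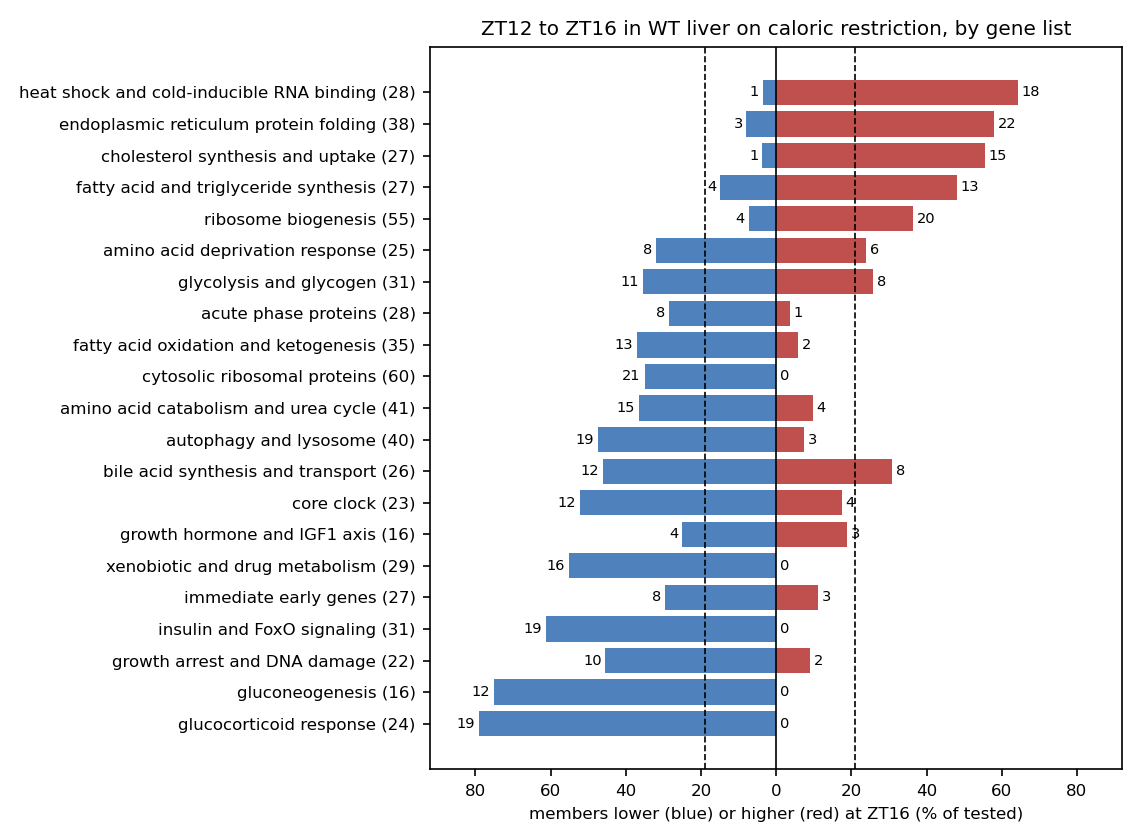
Share of each gene list that rose (red, right) or fell (blue, left) from ZT12 to ZT16 in WT liver on caloric restriction, in % of the members tested; numbers beside bars are counts, numbers in parentheses are members tested, and dashed lines mark 21.0% and 19.0%, the shares over all genes. The glucocorticoid response list had 19 fallers of 24 and the heat shock list 18 risers of 28; with scaling by total count alone the 21 falls among ribosomal proteins were not called.

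Among genes of at least 5 CPM with no overlap between groups, the 10 largest rises included several that were near absent before the meal. Slc34a2, a phosphate transporter, had 0.491, 0.21 and 0.282 CPM at ZT12 and 26.6, 26.8 and 28.7 CPM at ZT16, a change of 6.38 (SE 0.208, adjusted p 2.82e-05). Atp2b2, a plasma membrane calcium pump, went from 0, 0.35 and 0.563 to 41.5, 22.6 and 30 CPM (6.59, SE 0.497, adjusted p 0.000207). Every ZT16 library lay above every ZT12 library for both genes, which the rule required. A1bg, which encodes a plasma glycoprotein, had 1.33, 0.21 and 2.03 CPM and then 54.4, 62.6 and 83.3 CPM (5.76, SE 0.435, adjusted p 0.000207). Angptl8, a meal-responsive hormone that restrains lipoprotein lipase, had 13.4, 6.65 and 10.5 CPM and then 207, 244 and 156 CPM (4.32, SE 0.279, adjusted p 0.000151). Ptk6, Fam83f and Tjp3 rose by 4.10 to 4.69, and the clock gene Npas2 is given below. Bcar1 and Lrrfip2 had 0 counts in all 3 ZT12 libraries, and their rises against a limit of 3 counts per library were at least 47.1-fold and 29.1-fold. Bcar1 varied widely at ZT16, at 1.54, 8.1 and 18.1 CPM. At ZT20 in the same setting Bcar1 had 19.2, 13.3 and 0 CPM and Lrrfip2 0, 4.54 and 0 CPM. Both genes could thus be at 0 in some libraries of a group only, and the limits do not cover that spread.

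Among the 10 largest falls by the same rule, Igfbp1, a secreted binder of IGF1 that insulin represses, stood at 169, 627 and 265 CPM at ZT12 and at 11.9, 3.3 and 3.46 CPM at ZT16, a change of −5.79 (SE 0.715, adjusted p 0.00103). Rgs16, a brake on G protein signaling, went from 85.7, 158 and 189 to 4.25, 6.38 and 2.52 CPM (−5.05, SE 0.412, adjusted p 0.000252). In both cases every ZT12 library was far above every ZT16 library, and the rule required that the groups be apart. Lpin1, a phosphatidate phosphatase and coactivator of PPARα, had 467, 623 and 723 CPM and then 13.3, 80.4 and 5.69 CPM (−4.19, SE 0.908, adjusted p 0.00987), with replicate 2 at ZT16 standing far above the other 2. Fbxo32, the ubiquitin ligase atrogin-1, fell from 8.62, 8.12 and 6.03 to 0.319, 0.645 and 0.294 CPM (−4.18, SE 0.329, adjusted p 0.000229). Pdgfrl, Ip6k2 and the small MAF protein gene Maff were also among them. Ccnk had 0 counts at ZT16, a fall of at least 37.4-fold against 3 counts per library. Gm19680 and Rps2-ps10 completed the 10 and are uncertain, since 87.5% of the 31-base words of Gm19680 occur also in other genes, chiefly Paox, and 97.2% of those of the pseudogene Rps2-ps10 occur in other genes.

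The clock list had 23 members tested; 4 rose and 12 fell, against 21.0% and 19.0% of all genes, with a median of −0.38 beside 0.01 over all genes. Nr1d1, which encodes the repressor REV-ERBα, held 16.5, 14.3 and 15 CPM at ZT12 and 0.957, 1.22 and 1.06 CPM at ZT16 (−3.81, SE 0.167, adjusted p 4.37e-05). Its mean had been 179 CPM at ZT4 and 75.9 CPM at ZT8, so the step from ZT12 to ZT16 closed a decline that began earlier in the day. Its relative Nr1d2 fell from 129, 135 and 114 to 14.6, 13.8 and 10.1 CPM (−3.28, SE 0.152, adjusted p 5.06e-05). Arntl, the gene of BMAL1, which REV-ERB proteins repress, rose from 14.1, 6.3 and 10.9 to 25.7, 34.2 and 23.5 CPM (1.42, SE 0.278, adjusted p 0.0066). Npas2, a partner of BMAL1, had 0, 0 and 0.169 CPM at ZT12 and 5.8, 7.52 and 6.93 CPM at ZT16 (6.56, SE 0.586, adjusted p 0.000342). Its ZT12 values were all at or under the level of 3 counts, so the size of its rise is not measured well, and the fitted value ran from 6.08 to 9.73 between settings. No library of either gene at ZT16 reached down to the ZT12 range, which for Npas2 the rule of the largest rises required.

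The period and cryptochrome genes did not move together. Per1 stood at 104, 82.4 and 89.8 CPM at ZT12 and 36.6, 27.9 and 20.6 CPM at ZT16 (−1.69, SE 0.201, adjusted p 0.000897). Per2 rose from 67.1, 61.8 and 67.8 to 113, 109 and 121 CPM (0.82, SE 0.0805, adjusted p 0.000459). The 2 groups were apart in both genes. Cry1 held 55.7, 44.3 and 45.5 CPM and then 41.9, 50.5 and 46 CPM, overlapping groups with a difference of −0.06 (adjusted p 0.713) that was 0.106 with scaling by total count alone. Dbp, an output activator that BMAL1 drives, fell from 3.93, 7.42 and 5.97 to 1.06, 0.931 and 0.763 CPM (−2.63, SE 0.302, adjusted p 0.000783), and the opposing repressor Nfil3 fell as well, from 63.8, 53 and 53.2 to 33.1, 27.6 and 30.6 CPM (−0.88, SE 0.108, adjusted p 0.000983). The highest Dbp mean of the day, 41.7 CPM, was at ZT8.

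**Figure D2:**
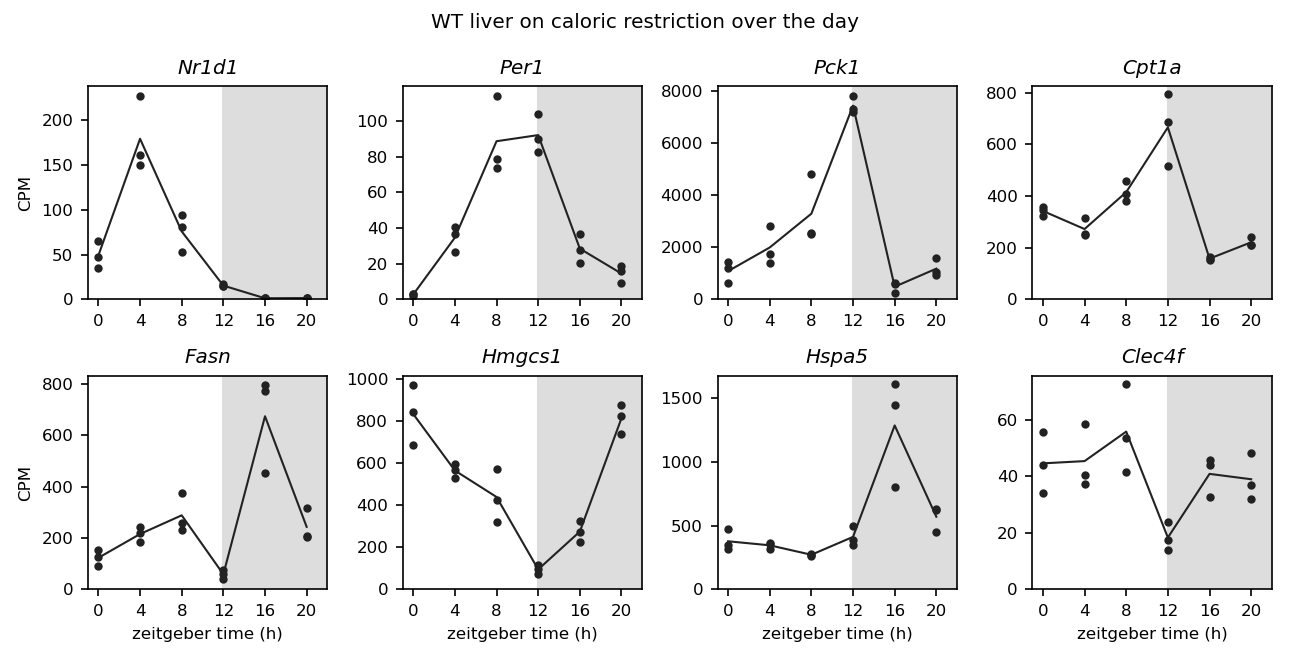
CPM of 8 genes in every WT liver on caloric restriction over the 6 time points (points are libraries, lines join group means, grey is the dark phase, x axis in hours of zeitgeber time). Nr1d1 was past its peak at ZT12, whereas Pck1 and Cpt1a were highest at ZT12 and Fasn and Hspa5 at ZT16.

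Of 24 genes of the glucocorticoid response list, 19 fell and 5 were not called, with a median of −1.58 (−1.41 with scaling by total count alone). Fkbp5, a GR co-chaperone whose gene GR induces, went from 333, 323 and 391 to 76.1, 87.6 and 63.2 CPM (−2.19, SE 0.142, adjusted p 0.000151). Zbtb16, a transcriptional repressor, went from 138, 103 and 113 to 5, 14.5 and 4.05 CPM (−3.92, SE 0.45, adjusted p 0.00078). Both genes were several-fold lower in every ZT16 library than in any ZT12 library. Angptl4, an inhibitor of lipoprotein lipase, went from 256, 285 and 249 to 25.4, 33.1 and 24.6 CPM (−3.24, SE 0.14, adjusted p 4.37e-05). The metallothionein gene Mt1 fell from 58.2, 45.9 and 80 to 17.6, 10.5 and 5.69 CPM (−2.43, SE 0.383, adjusted p 0.00284). Its neighbour Mt2 gave −2.79 but is uncertain, because 73.5% of its exon bases lie opposite another gene. Tsc22d3, the gene of GILZ, fell less, from 212, 247 and 262 to 172, 169 and 148 CPM (−0.55, SE 0.107, adjusted p 0.00677). Cdkn1a, a cell cycle inhibitor, was not called at 38.3, 20.1 and 27.7 against 28.2, 28.8 and 20.3 CPM; its difference of −0.15 (adjusted p 0.655) was 0.0212 with scaling by total count alone and 0.11 without replicate 1 at ZT12.

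Gluconeogenic genes fell, with 12 of 16 called down, 4 not called and a median of −1.01 (−0.84 with scaling by total count alone, where 1 gene rose). Pck1, the cytosolic phosphoenolpyruvate carboxykinase, held 7210, 7300 and 7820 CPM at ZT12 and 639, 570 and 237 CPM at ZT16, a change of −3.94 (SE 0.357, adjusted p 0.000354). The coactivator gene Ppargc1a fell from 52.2, 71.4 and 65.8 to 9.78, 7.95 and 11.9 CPM (−2.66, SE 0.176, adjusted p 0.000151). Group means of Pck1 rose from 1080 CPM at ZT0 to 7450 CPM at ZT12 and were 482 CPM at ZT16, the lowest of the day. G6pc, whose enzyme releases free glucose, had 596, 1700 and 941 CPM and then 377, 435 and 374 CPM (−1.43, SE 0.339, adjusted p 0.0138); its call was lost without ZT16 replicate 1 (adjusted p 0.0522), without ZT16 replicate 3 (0.0505) and in 1 fit of all 36 restricted libraries (0.0823). Fbp1, fructose bisphosphatase, was level at 1180, 1160 and 1200 against 1230, 1210 and 1180 CPM (0.04, SE 0.0692, adjusted p 0.692). Got1, an aminotransferase that feeds the pathway, fell from 916, 1470 and 1470 to 320, 211 and 260 CPM (−2.27, SE 0.226, adjusted p 0.000473).

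In the insulin and FoxO list 19 of 31 genes fell, and the other 12 were not called, with a median of −0.51; with scaling by total count alone 13 fell and 5 rose. The receptor adaptor Irs2 went from 40.8, 89.8 and 51.6 to 20, 13.7 and 18 CPM (−1.80, SE 0.296, adjusted p 0.00332). Foxo1 itself fell from 106, 118 and 123 to 32.8, 40.9 and 34.8 CPM (−1.67, SE 0.113, adjusted p 0.000161), and Foxo3 from 93.6, 107 and 101 to 32.7, 40.8 and 31.9 CPM (−1.5, SE 0.117, adjusted p 0.000222). In these 3 genes the groups did not overlap. The receptor gene Insr fell by 0.45 on the log2 scale (adjusted p 0.0114). Depp1, an autophagy regulator induced by FoxO factors, fell from 71.2, 38.2 and 41.7 to 5.42, 3.51 and 0.646 CPM (−3.95, SE 0.554, adjusted p 0.00176).

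Genes that catabolise amino acids were called down in 15 of 41 cases and up in 4, with a median of −0.27. The tyrosine aminotransferase gene Tat went from 5720, 7370 and 6680 to 2540, 2090 and 1710 CPM (−1.63, SE 0.158, adjusted p 0.000442). Tdo2, which opens the tryptophan ring, went from 1620, 2170 and 2180 to 995, 814 and 930 CPM (−1.11, SE 0.137, adjusted p 0.00103). Cps1, the entry enzyme of the urea cycle, overlapped between groups at 6910 to 8560 and 6630 to 9080 CPM, with a difference of −0.03 (adjusted p 0.863) that was 0.135 with scaling by total count alone. The amino acid deprivation list was mixed, with 6 up and 8 down of 25, against 21.0% and 19.0% of all genes. Atf5 rose from 99.2, 64.2 and 66.6 to 243, 237 and 225 CPM (1.63, SE 0.17, adjusted p 0.000557) while Sesn2, a restraint on mTORC1, fell from 18.3, 22.5 and 17.9 to 3.24, 4.59 and 3.11 CPM (−2.42, SE 0.186, adjusted p 0.000217). The amino acid transporter Slc38a2 fell from 327, 368 and 296 to 65.4, 71.2 and 68.5 CPM (−2.26, SE 0.105, adjusted p 5.06e-05).

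Fatty acid oxidation and ketogenesis had 13 fallers and 2 risers of 35 genes and a median of −0.19 (−0.018 with scaling by total count alone). Cpt1a, which admits fatty acids to mitochondria, fell from 517, 794 and 687 to 156, 151 and 165 CPM (−2.07, SE 0.158, adjusted p 0.000213). Ppara, the gene of the fasting receptor PPARα, fell from 165, 190 and 178 to 60.8, 77.9 and 82.2 CPM (−1.26, SE 0.13, adjusted p 0.000531). Pdk4, which spares pyruvate, fell from 46.2, 46.4 and 39.8 to 28.4, 31.3 and 25.7 CPM (−0.62, SE 0.104, adjusted p 0.00364), a call lost in 1 fit of all 36 restricted libraries (adjusted p 0.0568).

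Fat synthesis ran the other way, with 13 of 27 genes up and 4 down and a median of 0.45. Srebf1, the gene of SREBP-1c, stood at 106, 49.3 and 75.8 CPM at ZT12 and 440, 480 and 341 CPM at ZT16 (2.46, SE 0.275, adjusted p 0.000718). Fasn, fatty acid synthase, went from 59.1, 40.8 and 73 to 794, 774 and 454 CPM (3.56, SE 0.292, adjusted p 0.000255). Fasn was lowest of the day at ZT12, with a mean of 57.6 CPM, and highest at ZT16, with 674 CPM. Acly, which supplies cytosolic acetyl-CoA, rose from 194, 171 and 203 to 587, 538 and 465 CPM (1.5, SE 0.114, adjusted p 0.000213). Mid1ip1, an activator of acetyl-CoA carboxylase, rose from 15.6, 8.4 and 19 to 124, 119 and 98.8 CPM (2.99, SE 0.27, adjusted p 0.000354), although 25.5% of its exon bases lie opposite another gene. The desaturase Scd1 gave 0.80 (adjusted p 0.0435) and lost its call without ZT12 replicate 3 (adjusted p 0.0728), ZT16 replicate 1 (0.105) or ZT16 replicate 2 (0.126).

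Of 27 genes of cholesterol synthesis and uptake 15 rose and 1 fell, with a median of 0.46. Hmgcs1, the first committed synthase, had 115, 69.5 and 96.4 CPM and then 274, 225 and 322 CPM (1.56, SE 0.204, adjusted p 0.00132). Insig1, an ER anchor of SREBP, had 339, 268 and 311 CPM and then 765, 792 and 717 CPM (1.32, SE 0.107, adjusted p 0.000248). Both genes separated the groups. Hmgcs1 continued upward afterwards, with means of 274 CPM at ZT16, 813 CPM at ZT20 and 833 CPM at ZT0, in contrast to Fasn, whose mean at ZT20 was 242 CPM.

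Glycolysis and glycogen genes were divided, 8 up and 11 down of 31 (9 up and 7 down with scaling by total count alone), against 21.0% and 19.0% of all genes. The glycogen targeting subunit Ppp1r3c rose from 71.7, 52.2 and 91.8 to 135, 197 and 186 CPM (1.28, SE 0.226, adjusted p 0.00442), while the glycogen synthase gene Gys2 fell from 260, 488 and 395 to 157, 172 and 180 CPM (−1.15, SE 0.212, adjusted p 0.00513). Pfkfb3, a maker of fructose 2,6-bisphosphate, fell from 25.5, 44.5 and 29.1 to 4.73, 7.31 and 7.57 CPM (−2.33, SE 0.264, adjusted p 0.000754).

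**Figure D3:**
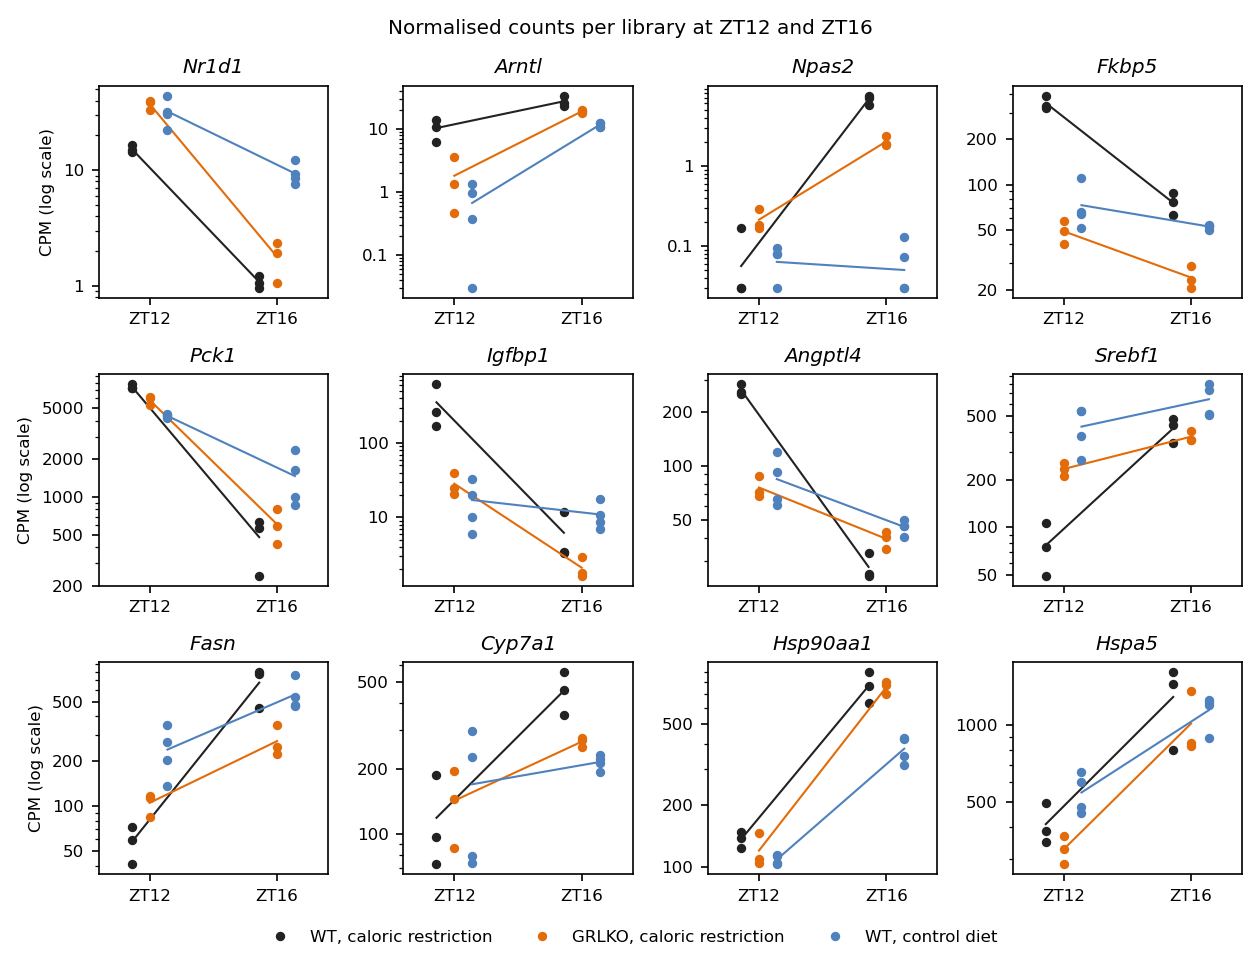
CPM on a log scale of 12 genes in every library at ZT12 and ZT16 in WT on caloric restriction (black), GRLKO on caloric restriction (orange) and WT on the control diet (blue); points are libraries, lines join group means, and values under 0.03 CPM are drawn at 0.03. Srebf1 and Fasn started lower at ZT12 in restricted WT livers than in restricted GRLKO livers, and Angptl4 started higher; the diets came in separate count files, so only slopes compare between them.

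Chaperone genes rose in both compartments. In the heat shock list 18 of 28 genes rose and 1 fell, with a median of 0.66. Hsp90aa1, the inducible cytosolic HSP90, had 124, 148 and 138 CPM and then 768, 636 and 897 CPM (2.50, SE 0.145, adjusted p 0.000123). Its mean was 55.2 to 137 CPM from ZT0 to ZT12 and 217 CPM at ZT20, so ZT16 stood alone; 51.4% of its 31-base words occur in other genes, mostly a pseudogene, and its counts are uncertain to that extent. The HSP90 co-chaperones Stip1 and Fkbp4 rose from 54, 55 and 57.6 to 156, 124 and 159 CPM (1.41, SE 0.11, adjusted p 0.000222) and from 113, 95 and 109 to 284, 273 and 276 CPM (1.4, SE 0.0914, adjusted p 0.000151). The cold-inducible gene Rbm3 was the faller of the list, from 88.1, 82.8 and 79.4 to 59.9, 59.3 and 59.4 CPM (−0.47, SE 0.0745, adjusted p 0.00278). The classical stress genes Hspa1a and Hspa1b are uncertain, since 65.4% and 68% of their words occur in other genes, mostly in each other; Hspa1a was under the filter and Hspa1b was not called (0.92, adjusted p 0.122).

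In the endoplasmic reticulum (ER) folding list 22 of 38 genes rose and 3 fell, with a median of 0.49. Hspa5, the ER HSP70 known as BiP, had 385, 497 and 350 CPM and then 1450, 801 and 1610 CPM (1.66, SE 0.263, adjusted p 0.00291). Creld2, an ER disulfide isomerase, had 16, 16.7 and 12.2 CPM and then 84.7, 40.5 and 109 CPM (2.40, SE 0.345, adjusted p 0.00197). In both genes replicate 2 was the lowest of the ZT16 libraries and still above every ZT12 library. Sdf2l1, a partner of BiP, had 3.01, 3.71 and 3.32 CPM and then 36.1, 14.3 and 38.3 CPM (3.16, SE 0.379, adjusted p 0.000927), and the secreted stress factor Manf had 23.6, 35.7 and 21 CPM and then 142, 86.7 and 170 CPM (2.33, SE 0.291, adjusted p 0.0011). Xbp1, a transcription factor of the unfolded protein response, rose by less, from 85.3, 128 and 98.7 to 185, 178 and 208 CPM (0.88, SE 0.154, adjusted p 0.00414). Herpud1, a part of ER-associated degradation, moved against the list, from 993, 758 and 824 to 205, 156 and 197 CPM (−2.19, SE 0.146, adjusted p 0.000153).

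Promoters of genes in these lists were read for known elements. RefSeq promoters of 300 bases on GRCm38.p6 were searched on both strands for the ER stress element (CCAAT, 9 bases, CCACG) and for a heat shock element (GAA, TTC and GAA with 2 bases between neighbours, or TTC, GAA and TTC spaced alike). The ER stress element was found for 9 of the 31 ER folding genes with a promoter in the table (29%), against 37 of all 27025 genes (0.137%). The heat shock element was found for 4 of 24 heat shock genes (16.7%), against 179 of all genes (0.662%). Of these 4, Hspd1 and Hspe1 lie head to head and their promoters overlap, so they are not separate finds; Hspe1 rose (0.50, adjusted p 0.00607) and Hspd1 was not called (0.30, adjusted p 0.097). Hsph1 rose (1.32, adjusted p 0.0242) but lost its call without ZT12 replicate 1 (adjusted p 0.0794) or 3 (0.08), without ZT16 replicate 1 (0.0581) or 3 (0.0725), and in 1 fit of all 36 restricted libraries (0.115). The E-box CACGTG was found for 5 of 18 clock genes (27.8%), against 2187 of all genes (8.09%). A match describes letters and not a bound site, and the lists were drawn from genes known for these responses. Of the 9 genes with the ER stress element, Calr, Canx, Creld2, Hsp90b1, Hspa5, Pdia6 and Syvn1 rose, Dnajc3 was not called and Derl3 was under the filter; Pdia6 lost its call without ZT16 replicate 1 (adjusted p 0.0536) or 3 (0.054). The 3 promoters printed belong to genes named above or, for Chordc1, to an HSP90 co-chaperone that rose from 20.8, 25.1 and 24.2 to 62.7, 46.9 and 79.6 CPM (1.45, SE 0.19, adjusted p 0.00135); capitals mark the matches. Their places are chr2:34771840-34772139 on the plus strand for Hspa5, chr15:88819396-88819695 on the plus strand for Creld2 and chr9:18292017-18292316 on the plus strand for Chordc1.
Hspa5: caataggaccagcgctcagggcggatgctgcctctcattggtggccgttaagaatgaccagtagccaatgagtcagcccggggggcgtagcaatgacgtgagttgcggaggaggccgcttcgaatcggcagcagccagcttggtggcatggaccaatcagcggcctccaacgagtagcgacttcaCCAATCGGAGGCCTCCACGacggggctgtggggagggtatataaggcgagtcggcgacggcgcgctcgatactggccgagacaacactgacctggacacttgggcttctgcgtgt
Creld2: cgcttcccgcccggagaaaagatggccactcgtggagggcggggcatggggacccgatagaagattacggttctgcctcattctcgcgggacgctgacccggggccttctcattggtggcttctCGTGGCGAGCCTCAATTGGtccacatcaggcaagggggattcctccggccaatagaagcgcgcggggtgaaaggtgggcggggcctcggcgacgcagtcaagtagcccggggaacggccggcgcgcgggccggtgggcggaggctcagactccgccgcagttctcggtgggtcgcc
Chordc1: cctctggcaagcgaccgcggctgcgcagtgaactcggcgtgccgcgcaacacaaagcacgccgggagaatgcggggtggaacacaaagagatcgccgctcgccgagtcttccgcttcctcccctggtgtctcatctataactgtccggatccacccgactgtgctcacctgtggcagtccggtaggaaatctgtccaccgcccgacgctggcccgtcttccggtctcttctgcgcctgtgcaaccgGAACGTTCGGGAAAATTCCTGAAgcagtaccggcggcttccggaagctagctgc

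Of 55 ribosome biogenesis genes 20 rose and 4 fell, with a median of 0.25. Mybbp1a, a nucleolar factor, had 42.1, 44.8 and 41.4 CPM and then 82.3, 75.7 and 90.5 CPM (0.97, SE 0.0912, adjusted p 0.00039), and Heatr1, a processing factor of the small subunit, had 10.7, 19.3 and 13.5 CPM and then 26.9, 26.4 and 30.6 CPM (0.96, SE 0.201, adjusted p 0.00834). Nucleolin, Ncl, was among the fallers at 76.6, 81 and 71.1 against 52.1, 58.7 and 60.9 CPM (−0.40, SE 0.0942, adjusted p 0.0135), a call that scaling by total count alone did not give. Of 60 cytosolic ribosomal protein genes 21 fell and 39 were not called, with a median of −0.23, but with scaling by total count alone none of the falls was called, 1 gene rose and the median was −0.06. Shared sequence was checked for only some of these genes; Rps4x, with 45.6% of its words in other genes, Rps6 with 45% and Rplp0 with 42.8% are uncertain.

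Autophagy and lysosome genes had 19 fallers and 3 risers of 40, with a median of −0.29. Ulk1, the kinase that starts autophagy, went from 90, 99.6 and 113 to 29.5, 34.2 and 22.7 CPM (−1.80, SE 0.16, adjusted p 0.000342). Atg14, a subunit of the lipid kinase complex that follows it, went from 31.6, 24 and 27.3 to 9.41, 11.2 and 8.57 CPM (−1.5, SE 0.146, adjusted p 0.000445). Map1lc3b, the gene of the membrane protein LC3B, went from 209, 203 and 204 to 106, 92.9 and 92.4 CPM (−1.07, SE 0.0828, adjusted p 0.000222). The groups were apart in each of the 3. The receptor gene Sqstm1 was not called (0.23, adjusted p 0.138) but rose with scaling by total count alone (adjusted p 0.0326) and in 1 fit of all 36 restricted libraries (0.0408).

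In the bile acid list 8 genes rose and 12 fell of 26, and 9 rose and 9 fell with scaling by total count alone. Cyp7a1, the rate-limiting enzyme of bile acid synthesis, had 72.6, 187 and 97 CPM and then 459, 354 and 556 CPM (1.95, SE 0.35, adjusted p 0.00468). Cyp8b1, which makes cholic acid, had 71.1, 147 and 80.9 CPM and then 315, 244 and 203 CPM (1.36, SE 0.29, adjusted p 0.00924). The sterol exporters Abcg5 and Abcg8 form a heterodimer and both fell, the first from 125, 121 and 136 to 22.3, 20.6 and 21.1 CPM (−2.57, SE 0.0849, adjusted p 2.82e-05) and the second from 151, 146 and 164 to 20.4, 14.6 and 13.2 CPM (−3.24, SE 0.166, adjusted p 8.03e-05). Xenobiotic genes fell in 16 of 29 cases with 13 not called (11 down and 2 up with scaling by total count alone). Por, the electron donor of the microsomal cytochromes P450, went from 1230, 1100 and 1230 to 214, 200 and 176 CPM (−2.58, SE 0.105, adjusted p 4.37e-05), and Cyp2e1 from 12400, 14800 and 13500 to 5920, 6710 and 6250 CPM (−1.09, SE 0.0912, adjusted p 0.000265).

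The remaining lists are set beside the shares over all genes, 21.0% up and 19.0% down. Immediate early genes had 3 risers and 8 fallers of 27; the calcineurin inhibitor Rcan1 rose from 21, 16.8 and 20.7 to 104, 62.8 and 168 CPM (2.53, SE 0.339, adjusted p 0.00146), while Fos stayed under 1.1 CPM and was not called (0.37, adjusted p 0.531). Growth arrest genes fell more often than all genes did, with 2 risers and 10 fallers of 22 and a median of −0.52. Ccnd1, cyclin D1, was 1 of the 2 risers and moved against the list. Its levels went from 6.31, 7.91 and 10.9 to 39.7, 21.9 and 85.4 CPM (2.56, SE 0.49, adjusted p 0.00611), with 23.4% of its exon bases opposite another gene. Growth hormone and IGF1 genes had 3 risers and 4 fallers of 16, near the shares over all genes. Igfals, whose product stabilises IGF1 in blood, rose from 14.7, 20.4 and 20.6 to 70.8, 52.7 and 50.5 CPM (1.65, SE 0.176, adjusted p 0.000606). Igf1 was not called (−0.23, adjusted p 0.155) except without ZT12 replicate 1 (adjusted p 0.0493). Acute phase genes had 1 riser and 8 fallers of 28, with a median of −0.15 that was 0.018 with scaling by total count alone. Il1r1, the interleukin 1 receptor, fell from 190, 163 and 185 to 20.8, 23.9 and 24 CPM (−2.96, SE 0.106, adjusted p 3.44e-05).

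Markers of resident macrophages rose as a group. All 12 Kupffer and myeloid markers were called up, with changes from 0.80 to 1.5 and a median of 1.17, also with scaling by total count alone; DESeq2 called 11. Their sum was 72.4, 117 and 84.5 CPM at ZT12 and 172, 227 and 211 CPM at ZT16. Clec4f, the most abundant and a lectin of Kupffer cells, had 13.7, 23.7 and 17.4 CPM and then 32.7, 45.8 and 44.1 CPM (1.17, SE 0.215, adjusted p 0.00504). The complement receptor Vsig4 had 5.82, 8.82 and 5.92 CPM and then 11.5, 18.6 and 17.1 CPM (1.21, SE 0.24, adjusted p 0.00693). No ZT16 library overlapped the ZT12 range. Adgre1, the gene of F4/80, gave 1.46 (adjusted p 0.0168) and lost its call without ZT16 replicate 2 (adjusted p 0.0513) or ZT16 replicate 3 (0.0554). In bulk tissue, fewer cells of a type and less RNA per cell cannot be told apart. ZT12 was the low point of the day for Clec4f, with a mean of 18.3 CPM against 38.9 to 55.9 CPM at the other 5 time points.

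Hepatocyte markers fell in 7 of 12 cases with 5 not called, and their sum went from 207000 to 215000 CPM at ZT12 to 171000 to 179000 CPM at ZT16; 5 were called down with scaling by total count alone. Most of this sum was albumin RNA, and the size of its fall rests on the scaling. Alb gave −0.24 (adjusted p 0.0143) with TMM and −0.08 (adjusted p 0.345) with scaling by total count alone. Its call was also lost without the filter on low counts (−0.25, adjusted p 0.0593). Endothelial markers had 2 up and 2 down of 8 and sums of 211 to 256 and 213 to 245 CPM, and stellate cell markers had 2 up of 9 and sums of 353 to 423 and 333 to 443 CPM. Over all genes 21.0% rose and 19.0% fell, and the endothelial counts and the stellate risers were near these shares. For cholangiocyte, erythrocyte, lymphocyte and adipocyte markers edgeR called 0 of 3, 0 of 5, 0 of 1 and 0 of 2 tested, 0 at an unadjusted p under 0.05 and 0 with DESeq2. With scaling by total count alone 1 cholangiocyte marker rose. Cholangiocyte sums were 26.7 to 31.6 CPM at ZT12 and 33.7 to 39.3 CPM at ZT16, without overlap. The erythrocyte, lymphocyte and adipocyte sums overlapped between the time points. Of the 7 neutrophil markers only Csf3r passed the filter, and the defining marker Ly6g was at 0 in all 6 libraries. The sum of the 7 was 0.491 to 0.62 CPM at ZT12 and 1.54 to 1.64 CPM at ZT16, without overlap. The rise of Csf3r, 1.02 (adjusted p 0.044), was lost with DESeq2 (adjusted p 0.21) and with any library left out: adjusted p 0.12, 0.105 and 0.11 without ZT12 replicates 1, 2 and 3, and 0.126, 0.131 and 0.0553 without ZT16 replicates 1, 2 and 3. The part of cell composition in the other results was not tested.

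**Figure D4:**
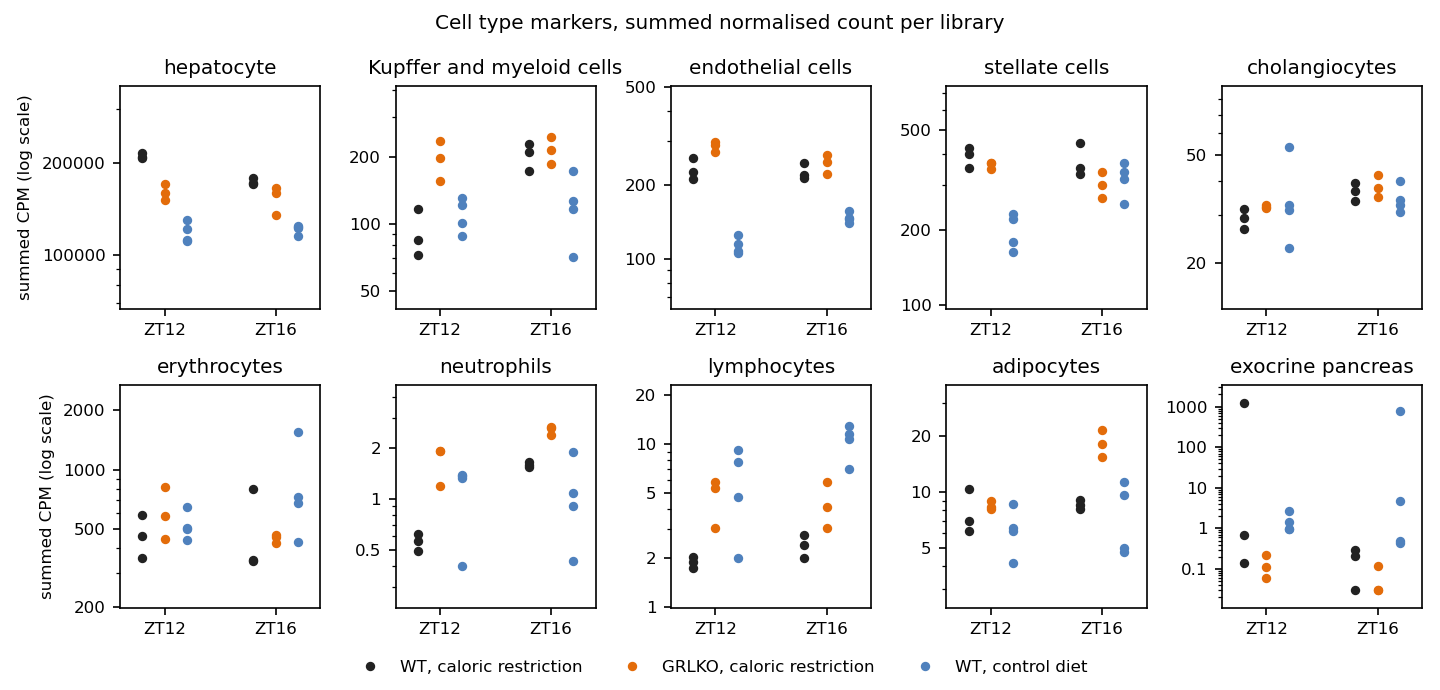
Summed CPM of cell type marker lists, on log scales, in every library at ZT12 and ZT16 (black, WT on caloric restriction; orange, GRLKO on caloric restriction; blue, WT on the control diet; sums under 0.03 CPM drawn at 0.03). Kupffer and myeloid markers were lower in the 3 restricted WT libraries at ZT12, at 72.4 to 117 CPM, than in the 3 at ZT16, at 172 to 227 CPM; exocrine pancreas markers stood out in 1 restricted and 1 control library.

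The same 4 h in restricted GRLKO livers gave 20.1% of 11943 genes up and 17.8% down. The difference between the genotypes' changes was tested directly. Of 12312 genes, 201 (1.63%) had a more positive change in WT and 187 (1.52%) a more negative one, with DESeq2 giving 373 and 458; with scaling by total count alone 69.5% of the calls were positive in place of 51.8%. The count fell by more than 1.5 times without GRLKO ZT12 replicate 3 (229), WT ZT16 replicate 1 (210) or GRLKO ZT16 replicate 3 (233). In the glucocorticoid response list 12 of 23 genes fell and 2 rose in GRLKO, and 7 of 24 had a more negative change in WT. Angptl4 fell from 68 to 88.1 CPM to 35 to 43.4 CPM in GRLKO (−0.93, adjusted p 0.00133), and its interaction was −2.31 (adjusted p 0.000236). Tsc22d3 rose in GRLKO, from 59, 73.9 and 66.1 to 125, 127 and 147 CPM (1.02, adjusted p 0.00054), against its fall in WT, with an interaction of −1.56 (adjusted p 0.000862).

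Fasn rose in GRLKO from 114, 84.6 and 118 to 248, 348 and 224 CPM (1.39, adjusted p 0.00133), and its change was more positive in WT by 2.18 (adjusted p 0.0111). Srebf1 rose by 0.69 in GRLKO (adjusted p 0.00176), more positive in WT by 1.78 (adjusted p 0.0125). In both genes the ZT12 libraries of WT were lower than those of GRLKO. Insig1 was not called in GRLKO (−0.26, adjusted p 0.0702), with an interaction of 1.59 (adjusted p 0.000346). Of the ER folding list 22 of 38 genes rose and 3 fell in GRLKO, as many as in WT, and Hspa5 had changes of 1.64 and 1.66 there and in WT (interaction adjusted p 0.987). Ribosome biogenesis had 36 risers of 55 in GRLKO, and 2 genes with a more negative change in WT. For Kupffer and myeloid markers edgeR called 0 of 12 in GRLKO, 1 at an unadjusted p under 0.05 and 0 with DESeq2; their sums were 156 to 236 CPM at ZT12 and 185 to 244 CPM at ZT16. The interaction was called for 1 of these 12 markers, with 9 at an unadjusted p under 0.05 and 6 called by DESeq2.

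On the control diet 6.85% of 11452 genes rose and 6.60% fell. The libraries of the diets came in separate count files and no label names their batches, so levels are not compared across them; in the diet by time interaction a shift common to both time points drops out. There 865 of 12243 genes (7.07%) had a more positive change on restriction and 949 (7.75%) a more negative one, DESeq2 gave 1007 and 1161, and with scaling by total count alone 75.4% of the calls were positive in place of 47.7%. The control count fell from 1540 to 1024, 967 or 875 without ZT16 replicate 1, 3 or 4, and the interaction count from 1814 to 1181 or 1208 without restricted ZT16 replicate 1 or 3. In the glucocorticoid response list 2 of 21 genes rose and 7 fell on the control diet, and 12 of 24 had a more negative change on restriction. Fkbp5 stood at 51.6 to 111 and 50.2 to 53.8 CPM on the control diet, not called (−0.46, adjusted p 0.163), with an interaction of −1.76 (adjusted p 0.00212). Igfbp1 was not called there either, at 5.91 to 32.7 and 7.01 to 17.5 CPM (−0.64, adjusted p 0.431), with an interaction of −5.17 (adjusted p 0.00308).

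Several clock genes also changed by another amount on restriction. Nr1d1 fell on the control diet from 22.4 to 44.2 CPM to 7.58 to 12.2 CPM (−1.77, adjusted p 0.00225), less than on restriction by an interaction of −2.07 (adjusted p 0.00186). Arntl rose by 4.07 on the control diet (adjusted p 0.00225), from 0 to 1.36 CPM at ZT12 to 10.8 to 12.6 CPM at ZT16, more than on restriction (interaction −2.67, adjusted p 0.011). Npas2 stayed at or under 0.129 CPM in all 8 control libraries, under the limit that 3 counts set there. Its interaction was called (6.78, adjusted p 0.0155), but the fitted size is no measure, since it ran from 6.30 to 9.81 between settings. Pck1 fell by 1.57 on the log2 scale on the control diet (adjusted p 0.00943; interaction −2.39, adjusted p 0.00646). In the heat shock and ER folding lists 16 of 29 and 19 of 39 genes rose there, and 6 of 30 and 7 of 39 had a more positive change on restriction; 3 ER folding genes had a more negative one. Kupffer and myeloid sums were 87.8 to 130 CPM at ZT12 and 70.8 to 172 CPM at ZT16 on the control diet, where edgeR called 0 of 11 markers, 0 at an unadjusted p under 0.05 and 0 with DESeq2; the interaction was called for 2 of 12, with 9 at an unadjusted p under 0.05 and 4 called by DESeq2.

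These results rest on 3 mice per group and on 2 time points 4 h apart, and the libraries were taken once from each mouse. Dark onset and the meal came at the same hour, so their parts in the change cannot be told apart, and no restricted group without a meal at ZT12 was used here. Only RNA level was read here; protein, enzyme activity, hormone level and food intake were not used here. Directions are relative to the scaling used, since total RNA per liver was not used here. RNA of exocrine pancreas was present in 1 of the 6 libraries, and its effect on genes expressed in both tissues was not tested.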

How the data were processed

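The values are gene-level estimated counts deposited by the authors, who per the labels made them with Salmon from bulk RNA-seq of mouse liver. They were rounded, and 27244 of 27654 gene IDs were matched to symbols. The groups were those of the labels, with 3 libraries each on caloric restriction and 4 each on the control diet; depths and the limits they set are given in the report. Genes were kept by filterByExpr (minimum count 10), scaled by TMM and tested with the quasi-likelihood F test of edgeR 4.0.16 in R 4.3.3, with Benjamini-Hochberg adjustment and a threshold of 0.05. Each comparison was fitted on its own libraries, and differences between changes as genotype by time and diet by time interactions. Displayed CPM were TMM-scaled over each whole table. Alternatives were DESeq2 1.42.0, other scalings and filters, 1 fit of 36 libraries, replicate number as a block and each library left out. Named genes were the 10 largest rises and falls at 5 CPM or more without overlap between groups, key members and the largest changes of each list, and the 5 largest interactions of each sign; a few of these are not reported here, though counts over lists and all genes keep every gene. Members and lists were chosen with earlier results of these data known. The scripts were tested on simulated data, and shared sequence was checked with 31-base words.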

Additional observations from a re-analysis of the deposited data

Results flagged for a closer look

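A library far from the other 3 of its group was looked for in the groups of 4, all on the control diet, and 9 of 76 group values had one. Chance marks about 1 in 20 where values are normally spread and not selected. Most genes here were chosen for a called diet by time interaction and some were near 0, so that rate does not compare. The pancreas values at ZT16 are not separate finds. At ZT12 the far values were 0 CPM for Npas2, 1.07 for Amy2a4, 4.9 for Pdk4, 65.4 for Depp1 and 0.399 for the summed neutrophil markers. At ZT16 they were 61.9 CPM for Amy2a4, 83.2 for Cela2a, 0 for Gm19680 and 766 for the summed exocrine pancreas markers. Groups of 3 were not tested in this way.

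The interaction test was called for the genes below. They have the 5 largest values of each sign among the named genes. Key genes of the lists with an absolute value of at least 1.5 were added. Other named genes with smaller called interactions are not listed. The named genes do not hold all the largest values among called genes. For genotype by time, 3 called genes were more than 8-fold more positive in WT and 6 more than 8-fold more negative. For the change from ZT12 to ZT16 on caloric restriction between genotypes, a positive value means a more positive change in WT. The values were 2.59 for Zfp872, 2.41 for Klhdc7a, 2.29 for Mid1ip1, 2.25 for Dbp, 2.18 for Fasn, 1.78 for Srebf1 and 1.59 for Insig1. They were −18.8 for Bcat2, −8.80 for Gm19680, −5.79 for Mup17, −3.44 for Mup16, −2.78 for Mup18, −2.49 for Pfkfb3, −2.41 for Cdkn1a, −2.31 for Angptl4, −1.56 for Tsc22d3 and −1.52 for Ppp1r3b. Bcat2 had 3.44, 5.11 and 6.14 CPM in WT at ZT12 and 0 in all 3 libraries at ZT16, a fall of at least 26.7-fold against 3 counts per library; its fitted interaction is no bound. The Mup genes share most of their sequence with one another, and the calls of Mup16, Mup18, Zfp872 and Cdkn1a were lost when single libraries were left out.

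By the same choice, the WT change differed between diets for the genes below, a positive value meaning a more positive change on restriction. Among all called genes, 21 were more than 8-fold more positive on restriction and 23 more than 8-fold more negative. The positive values were 9.68 for Bcar1, 8.54 for Gm10698, 6.78 for Npas2, 4.20 for Zfp872, 4.00 for Acp2, 2.92 for Ccnd1, 2.30 for Fasn and 1.86 for Srebf1. The negative values were −16.3 for Amy2a4, −13.6 for Cela2a, −12.2 for Gm4737, −9.29 for Gm19680, −6.96 for Elovl3, −5.17 for Igfbp1, −4.66 for Depp1 and −3 for Pdk4. Further negative values were −2.67 for Arntl, −2.40 for Angptl4, −2.39 for Pck1, −2.07 for Nr1d1, −2.06 for Cdkn1a, −1.97 for Sesn2, −1.93 for Por, −1.88 for Herpud1, −1.76 for Fkbp5, −1.75 for Nfil3 and −1.60 for Tat. Values for genes with a group at or near 0, Npas2 among them, are fitted and are no bound. Amy2a4 and Cela2a are pancreas genes whose counts lay almost wholly in 1 library of each diet; without restricted ZT12 replicate 3 they gave −5.37 (adjusted p 0.657) and −4.37 (adjusted p 0.765). Cela2a gave −7.26 (adjusted p 0.371) without control ZT16 replicate 2. Both also lost their calls, at adjusted p 0.0526 to 0.097, without several other single libraries. Elovl3 lost its call without restricted ZT12 replicate 2 (−3.86, adjusted p 0.118) or ZT16 replicate 1 (−6.32, adjusted p 0.0536). Gm4737 lost it without restricted ZT12 replicate 3 (−10.9, adjusted p 0.165) or ZT16 replicate 1 (adjusted p 0.0766), 2 (0.063) or 3 (0.0745). Amy2a4, Gm10698, Gm4737 and Gm19680 share 100%, 100%, 95.6% and 87.5% of their words with other genes and are uncertain.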

How the results depend on the processing

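Of 180 named genes called in WT on caloric restriction, 137 were called under every setting that gave them a value and 0 turned direction. The WT count of 4705 stayed within 1.5 times under every setting, from 3537 to 3992 with a library left out, and GRLKO gave 3303 to 3886. The other leave-one-out ranges were 875 to 1384 on the control diet, 210 to 357 for genotype by time and 1181 to 1785 for diet by time. For genotype by time DESeq2 called 831 genes; the cause was not tested. With replicate number as a block 3718 genes were called in WT and 4191 in GRLKO on restriction, 998 on the control diet, 258 for genotype by time and 1194 for diet by time; adjusted p with the block was 0.0728 for Hsph1, 0.0837 for Scd1 and 0.106 for Csf3r in WT, and for diet by time 0.0672 for Npas2, 0.06 for Acp2, 0.0705 for Cela2a, 0.101 for Gm19680 and 0.0505 for Arntl. The numbers did not pair the samples: same-numbered deviations correlated at −0.019, −0.13 and −0.083 in WT, −0.0074, 0.11 and −0.0089 in GRLKO and 0.11, 0.039, 0.06 and −0.046 on the control diet.

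Directions reversed only for genes that were not called. With scaling by total count alone the values were 0.0212 for Cdkn1a, 0.135 for Cps1, 0.106 for Cry1, 0.128 for Dcn, 0.0181 for Jun, 0.0916 for Reln, 0.0522 for Rplp0, 0.00169 for Rps6, 0.077 for Rrs1 and 0.156 for Ttr, which follows from the upward shift of that scaling. With a minimum count of 50 Ttr gave 0.00197. With a library left out the values ranged from −0.349 to 0.11 for Cdkn1a, −0.184 to 0.0534 for Cps1, −0.133 to 0.0445 for Cry1, −0.2 to 0.0584 for Dcn, −1.35 to 0.136 for Egr1, −0.303 to 0.865 for Fgf21, −0.389 to 0.442 for Hba-a1, −0.369 to 0.424 for Hbb-bs, −0.293 to 0.0639 for Jun, −0.0921 to 1.05 for Lrat, −0.0518 to 0.18 for Nop56, −0.215 to 0.0822 for Reln, −0.278 to 0.0146 for Rplp0 and −0.0987 to 0.046 for Ttr; the cause was not tested. A gene at 0 could hold up to 3 counts per library.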
